A study of Mus musculus with 21 samples.

Results

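The genes described here are glycolytic enzymes, the transporters that move glucose and lactate across the cell membrane, the enzymes that set the flux through the pathway, and targets and regulators of the hypoxia-inducible factors (HIF). They were chosen by symbol, as the rows of the raw count table whose mouse Ensembl identifiers map to 32 listed symbols. These gave 33 rows of 52636, because Aldoa has 2 annotated gene models, and all 33 were among the 16197 genes with enough counts to be tested. The cells were fibroblasts of mouse lung that carry the surface proteins Ly6C and Sca-1, and total RNA of 21 samples was sequenced by stranded RNA-seq. The 7 groups of 3 libraries received DMSO, CHIR, TGFb1, TGFb1 + DMSO, TGFb1 + CHIR, TGFb1 + IL1b or TGFb1 + TNF. DMSO is a solvent, TGFb1 is a growth factor known to induce matrix production in fibroblasts, IL1b and TNF are inflammatory cytokines, and CHIR is given by that short name alone. The labels give no strain, age, dose, duration or oxygen tension, and they do not say whether replicates came from separate animals or cultures, so p-values measure the spread between these libraries, which may be technical.

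In glycolysis a cell breaks glucose down to pyruvate, and much of that pyruvate can be turned into lactate, which leaves the cell through monocarboxylate transporters. The HIF transcription factors switch on many of these genes when oxygen is short: the prolyl hydroxylases of the Egln family mark HIF alpha subunits for breakdown in oxygen, and RNA levels of the subunits therefore do not report HIF protein. Activated fibroblasts of the lung are known for increased glycolysis and lactate output.

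Library totals ran from 19796379 to 29276382 counts. Levels are in CPM, counts scaled to library size with TMM factors, and they are set against each other between genes only per kilobase of exon. The collagen genes Col1a1, Col1a2 and Col3a1 were high in every group. Their lowest group mean was 4241 CPM, that of Col3a1 in TGFb1 + TNF. All of them had higher means in TGFb1 + DMSO than in DMSO. Other fibroblast markers were lower there: Pdgfra (444 against 1485 CPM), Dcn (206 against 2013 CPM) and Lum (0.549 against 9.24 CPM). Pdgfrb (993 against 954 CPM) and Thy1 (54.15 against 65.69 CPM) differed less. Ptprc, Adgre1, Cd3e and Krt18 were at 0 in all 7 groups, and the 7 immune and 7 epithelial markers summed to at most 2.45 and 0.459 CPM as group means. The markers that name the cells, Ly6a (Sca-1) and Ly6c1, were themselves lower in the groups with TGFb1, CHIR or TNF, with a summed mean of 192 CPM in DMSO and 8.53 CPM in TGFb1 + CHIR. In bulk RNA, fewer cells of a type and less RNA per cell cannot be told apart.

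Reads of genes with near-identical copies can be lost or split in counting, so each member's coding transcripts were cut into 50-base windows and looked up in the transcripts of all other annotated genes, on either strand. A match to an antisense gene bears on a count only where counting ignored the strand, and the strand setting is unknown. Bnip3, a mitophagy receptor of the outer mitochondrial membrane, stood out among the members: 59.1% of its windows were found elsewhere, in a lincRNA, an antisense gene and 2 processed pseudogenes. Its level of 1.45 CPM per kb (median of the 7 group means) has to be read with that value beside it. Gpi1 followed with 24.5% and Pkm with 23.7%, most of it in processed pseudogenes, yet both kept sizeable counts, with 22.2 and 103.6 CPM per kb. Ldha shared 10.4% of its windows with 5 pseudogenes and Ak4 shared 10.8% with 1. Pfkp shared 15.4% with its neighbour Pitrm1, Ndrg1 12.3% with antisense and divergent transcripts, and Ankrd37 11.4% with its neighbours Lrp2bp and Ufsp2. In 14 of the 33 rows, Hk2, Slc16a3 and Epas1 among them, no window was shared.

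The enzymes of the same pathway that are not members give the scale of the problem. Gapdh, which shared 58.4% of its windows and has 109 pseudogenes with at least 50 of them, held 45 counts in all libraries together, and the members do not include it. Pgk1 shared 68.0% and held 4161 counts, and Pgam1 shared 41.5% and held 755. Eno1 shared 49.5% and still held 77883 counts, so a large shared part did not go with a low count in each case. Tpi1 shared 6.83% and held 173444 counts. A low count may be a low level or lost reads, and which of them holds for Bnip3 was not tested.

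**Figure D1:**
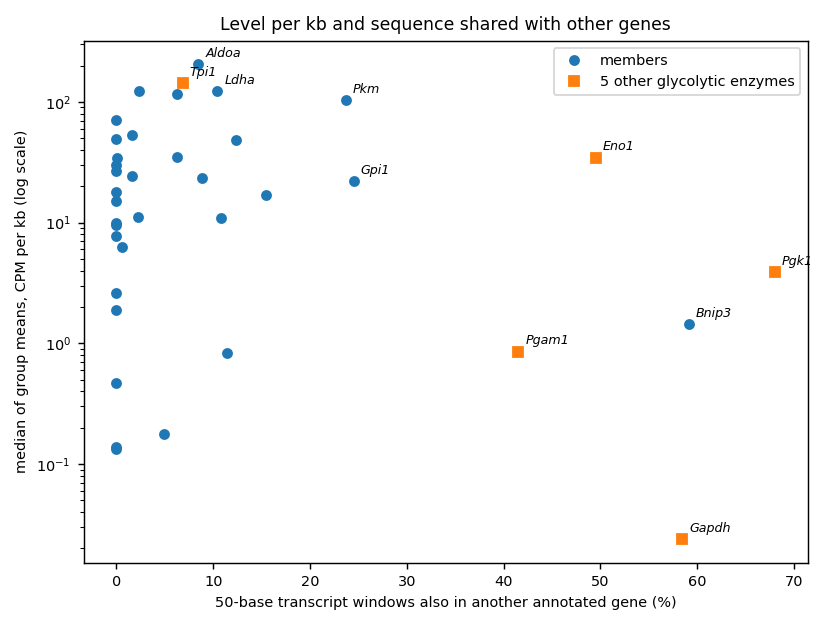
Each point is a gene: the x axis is the share of its 50-base transcript windows found in another annotated gene (%), and the y axis is the median of the 7 group means in CPM per kb on a log scale. Bnip3 is the member with the largest shared part, 59.1%, and Gapdh, Pgk1 and Pgam1, which are not members, lie at low levels with 41.5% to 68.0% shared.

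Aldolase A makes up the second case in which the annotation matters. The main Aldoa model (ENSMUSG00000030695, chr7:126795234-126800751, minus strand) held 277846 counts. A separate model of the same name (ENSMUSG00000114515, chr7:126800790-126809108, minus strand) lies just upstream and held 187. The upstream model is given under its own name below, because its counts ran from 0 to 33 per library.

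HIF binds short elements with the core ACGTG or GCGTG, so the 250 bases before each RefSeq start site (build GRCm38.p6) were searched for these letters on both strands. Start sites were listed for 29 of the 32 symbols, with 47 in all. One or both cores occurred upstream of 35 of the 47 starts, or 74.5%, against 38.6% of the 32851 starts of all genes. ACGTG alone occurred in 22, or 46.8%, against 16.6%. Starts of the same gene can lie close together and share bases, as some of those of Ak4 do. By gene, a core occurred upstream of 25 of the 29 members and of 11226 of all 27025 genes. Because the members were listed as HIF targets and glycolytic genes, an excess of the core could be foreseen from that choice and is not a result of these data. These bases are shown for the members among the 8 with the largest response to TGFb1 that have a single listed start, 5′ to 3′ on the gene's strand, with each core or its reverse complement (CACGT or CACGC) in capitals. They lie at chr11:120948817-120949066, plus strand (Slc16a3), chr7:138909507-138909756, minus strand (Bnip3), chr8:45999851-46000100, minus strand (Ankrd37), chr12:54203875-54204124, minus strand (Egln3), chr6:82774455-82774704, minus strand (Hk2) and chr9:66713436-66713685, plus strand (Car12).
Slc16a3: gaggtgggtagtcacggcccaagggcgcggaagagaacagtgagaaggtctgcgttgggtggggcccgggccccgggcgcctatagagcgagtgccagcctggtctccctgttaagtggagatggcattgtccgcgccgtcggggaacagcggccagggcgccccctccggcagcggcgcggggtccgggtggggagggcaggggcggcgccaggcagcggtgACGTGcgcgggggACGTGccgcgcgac
Bnip3: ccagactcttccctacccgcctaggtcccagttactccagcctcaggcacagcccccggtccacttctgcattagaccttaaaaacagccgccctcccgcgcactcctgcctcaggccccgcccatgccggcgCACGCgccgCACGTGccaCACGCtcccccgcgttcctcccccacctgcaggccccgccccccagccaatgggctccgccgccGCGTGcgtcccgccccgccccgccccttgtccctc
Ankrd37: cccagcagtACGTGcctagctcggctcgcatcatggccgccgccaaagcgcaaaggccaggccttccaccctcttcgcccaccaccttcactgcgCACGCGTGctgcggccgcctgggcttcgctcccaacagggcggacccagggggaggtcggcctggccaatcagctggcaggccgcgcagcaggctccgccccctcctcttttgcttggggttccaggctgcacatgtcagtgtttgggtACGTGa
Egln3: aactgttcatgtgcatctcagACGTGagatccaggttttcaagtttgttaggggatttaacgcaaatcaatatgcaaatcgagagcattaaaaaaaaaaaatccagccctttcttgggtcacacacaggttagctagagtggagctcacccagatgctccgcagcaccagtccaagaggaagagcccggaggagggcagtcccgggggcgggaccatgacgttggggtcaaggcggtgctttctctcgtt
Hk2: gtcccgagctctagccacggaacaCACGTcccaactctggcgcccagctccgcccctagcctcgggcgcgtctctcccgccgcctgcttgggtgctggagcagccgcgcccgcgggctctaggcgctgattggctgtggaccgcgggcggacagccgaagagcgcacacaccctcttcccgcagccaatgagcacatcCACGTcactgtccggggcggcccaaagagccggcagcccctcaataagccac
Car12: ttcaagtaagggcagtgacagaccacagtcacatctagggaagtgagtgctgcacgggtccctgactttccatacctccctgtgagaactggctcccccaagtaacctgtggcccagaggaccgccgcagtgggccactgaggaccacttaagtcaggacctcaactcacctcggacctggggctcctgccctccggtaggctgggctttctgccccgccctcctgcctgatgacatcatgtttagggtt
Slc16a3 has 2 ACGTG cores close to its start, Bnip3 has 5 matches, 2 of them ACGTG, and Ankrd37 has 4, with overlapping matches counted apart. Egln3 has 1, Hk2 has 2, and Car12 has none in this window. A match of letters is not a bound site, and no binding was measured here.

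The first comparison asks what TGFb1 did to these genes in cells that also received the solvent. In TGFb1 + DMSO against DMSO, 26 of the 33 members were higher, 3 were lower and 4 did not pass an adjusted p of 0.05 (edgeR quasi-likelihood test, adjusted over all genes tested). Over all genes 30.7% were higher and 31.3% lower, so most genes moved and the members' split lies on the higher side of it. Their median log2 fold change was 1.498, against -0.02 over all genes. At least 2-fold higher were 22 members, against 8.07% of all genes, and 1 member was at least 2-fold lower, against 13.7%. No call on a member in this comparison was lost when any 1 library was left out.

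The largest response was that of a lactate exporter gene. Slc16a3 (ENSMUSG00000025161, chr11:120948480-120960868, plus strand) encodes MCT4, the lactate exporter of strongly glycolytic cells. Its level was 4.01, 3.42 and 4.38 CPM in the 3 DMSO libraries and 103, 108 and 104 CPM in the TGFb1 + DMSO libraries, and the libraries with TGFb1 alone were at 123, 135 and 125 CPM. All TGFb1 libraries lay far above all DMSO libraries. The log2 fold change was 4.74 ± 0.078 (SE; 26.7-fold higher, adjusted p = 6.92e-45). Slc16a1, which encodes the more widely expressed transporter MCT1, had a log2 fold change of 0.44 ± 0.075. The glucose transporter gene Slc2a1 (GLUT1) stood at 97.6, 74.5 and 83.0 CPM in DMSO and 177, 191 and 189 CPM in TGFb1 + DMSO, a rise of 1.13 ± 0.057 on the log2 scale (adjusted p = 3e-20).

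Among the 11 rows of glycolytic enzymes, 8 were higher and 1 was lower. Hk2 (ENSMUSG00000000628, chr6:82725025-82774454, minus strand), the inducible hexokinase that traps glucose as glucose 6-phosphate, rose from 35.4, 34.7 and 32.9 CPM in DMSO to 175, 183 and 177 CPM (5.20-fold, log2 2.38 ± 0.056, adjusted p = 1.3e-37). Hk1, the hexokinase most tissues express, rose by 0.54. The liver-type and platelet-type phosphofructokinases, Pfkl and Pfkp, which catalyse the committed step, rose by 2.18 and 2.13, whereas the muscle-type Pfkm fell by 0.18 with an adjusted p of 0.00304. With the TGFb1 group in place of TGFb1 + DMSO, Pfkm did not pass.

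Further down the pathway, Gpi1 (glucose 6-phosphate isomerase) rose by 1.43 and Aldoa by 1.38. Pkm, which makes pyruvate, stood at 160.4, 157 and 168 CPM in DMSO and 496, 525 and 533 CPM in TGFb1 + DMSO, a rise of 1.68 ± 0.039 (adjusted p = 2.55e-38). Ldha, which turns pyruvate into lactate, stood at 114, 120.5 and 114 CPM and 416, 437 and 421 CPM, a rise of 1.87 ± 0.045 (adjusted p = 1.19e-37). In both genes the lowest TGFb1 + DMSO library was above the highest DMSO library by a wide margin. Aldoc, the brain-type aldolase, and the upstream Aldoa model were near the limit of detection, with 1 to 28 and 0 to 33 counts per library, and did not pass.

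All 3 genes that set the flux were higher. Pfkfb3 and Pfkfb4 encode bifunctional enzymes that control fructose 2,6-bisphosphate, the activator of phosphofructokinase, and rose by 1.09 ± 0.074 and 1.54 ± 0.082. Pdk1, the kinase that shuts pyruvate dehydrogenase and keeps pyruvate out of mitochondria, stood at 37.6, 46.3 and 40.1 CPM in DMSO and 192, 227 and 211 CPM in TGFb1 + DMSO (5.07-fold, log2 2.34 ± 0.095). The 2 genes of glycogen storage, Gys1 (glycogen synthase) and Gbe1 (branching enzyme), rose by 1.92 and 0.75.

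The RNAs of the HIF alpha subunits moved in opposite directions. Hif1a (ENSMUSG00000021109, chr12:73901375-73947530, plus strand) stood at 277, 277 and 280.3 CPM in DMSO and 776, 721 and 715 CPM in TGFb1 + DMSO, a rise of 1.41 ± 0.042 (adjusted p = 1.04e-33). Epas1 (ENSMUSG00000024140, chr17:86753700-86833410, plus strand), which encodes HIF2 alpha, stood at 174, 168 and 162 CPM in DMSO and 12.6, 15.8 and 12.1 CPM in TGFb1 + DMSO. That is 12.4-fold lower (log2 -3.63 ± 0.087, adjusted p = 7.75e-33), and Epas1 was the one member at least 2-fold lower. Both hydroxylase genes were higher, Egln1 by 1.498 and Egln3 by 2.41 ± 0.10. Egln3 (ENSMUSG00000035105, chr12:54178981-54203860, minus strand), itself a HIF target that closes a feedback loop, went from 4.63, 4.801 and 5.07 CPM to 23.3, 27.6 and 26.1 CPM.

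Of the 10 other HIF targets, 7 were higher, 1 was lower and 2 did not pass. Ak4 (ENSMUSG00000028527, chr4:101419277-101466995, plus strand), a mitochondrial adenylate kinase, stood at 3.64, 3.79 and 3.85 CPM in DMSO and 47.1, 54.9 and 51.6 CPM in TGFb1 + DMSO (13.6-fold, log2 3.77 ± 0.10, adjusted p = 1.01e-33). Bnip3 (ENSMUSG00000078566, chr7:138890836-138909519, minus strand) went from 0.510, 0.772 and 0.324 CPM to 3.997, 6.37 and 3.91 CPM (log2 3.12 ± 0.32), Ankrd37 (ENSMUSG00000050914, chr8:45996902-46005707, minus strand) from 0.442, 0.336 and 0.486 to 2.25, 2.25 and 4.87 CPM (log2 2.88 ± 0.36), and Car12 (ENSMUSG00000032373, chr9:66713686-66766845, plus strand), a membrane carbonic anhydrase, from 0.544, 0.839 and 0.405 to 4.85, 3.31 and 2.49 CPM (log2 2.54 ± 0.28). In each of these low genes the groups did not overlap, and the spread within TGFb1 + DMSO was wide, with 1 library above the others in each. Ddit4, an inhibitor of mTORC1 that is induced by several stresses, rose by 2.10, the repressor gene Bhlhe40 by 1.601 and Ndrg1, a stress-response gene, by 0.69.

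Not every HIF target followed. The histone demethylase gene Kdm3a fell by 0.21 on the log2 scale. Mxi1, a MYC antagonist, had 0.08 ± 0.057 (adjusted p = 0.246), but with the TGFb1 group in place of TGFb1 + DMSO it was higher (0.20, adjusted p = 0.00209). Car9, the carbonic anhydrase often used as a marker of hypoxia, had -0.04 ± 0.61 (adjusted p = 0.958). Car9 held 1 to 19 counts per library in the whole series, so a change of moderate size was not detectable at this depth.

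**Figure D2:**
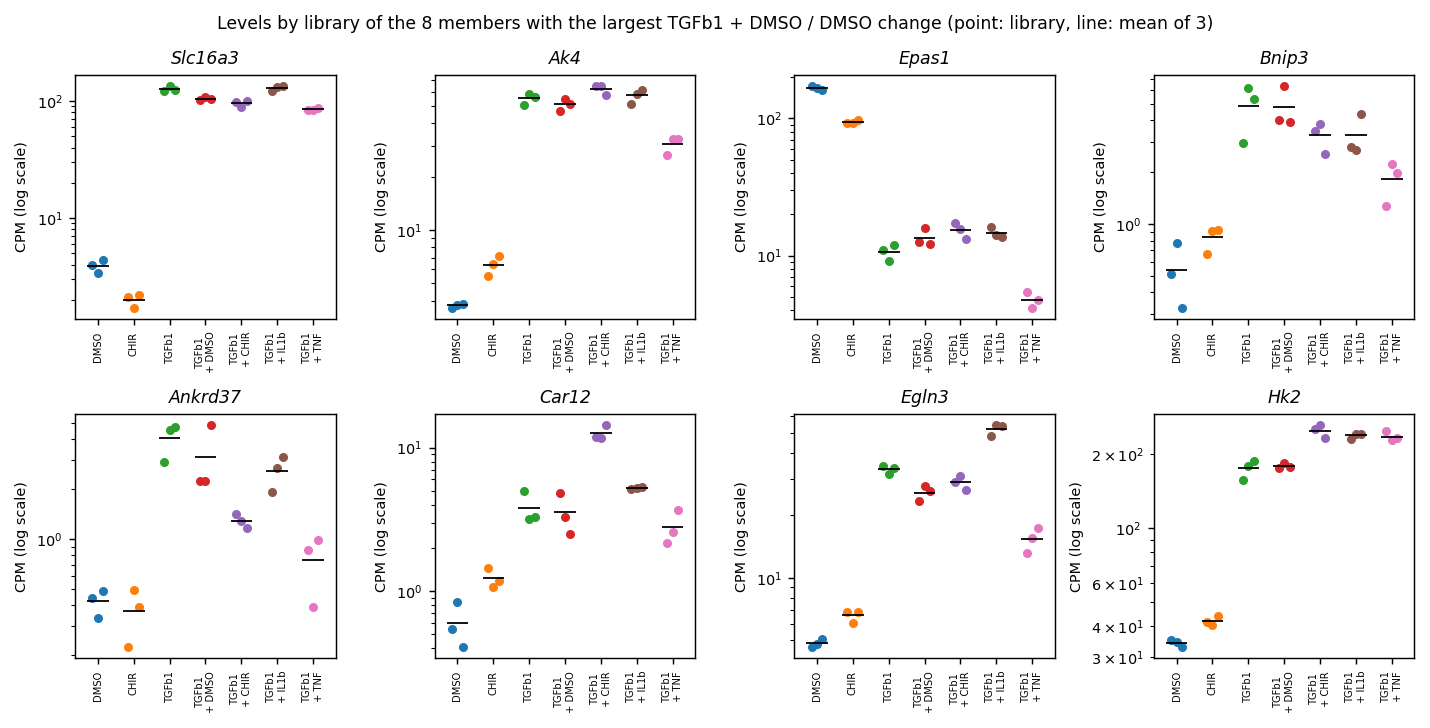
Levels of the 8 members with the largest change between TGFb1 + DMSO and DMSO, in CPM on a log scale, by treatment group; points are libraries and lines are means of 3. Slc16a3 sits between 1.71 and 4.38 CPM in the 6 libraries without TGFb1 and between 83.1 and 135 CPM in the 15 with it, and Epas1 shows the opposite order.

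The rest of the pathway was read from a list of 92 other genes, of which 79 were tested. In TGFb1 + DMSO against DMSO 41 were higher, 23 lower and 15 did not pass, with a median log2 fold change of 0.38. Among 12 other glycolytic enzymes 6 were higher and 4 lower, with Tpi1 (triose phosphate isomerase) at 2.19 and Ldhb, the lactate dehydrogenase subunit of oxidative tissues, at -2.52. Among 29 other HIF targets 18 were higher and 5 lower: the growth factor gene Pgf stood at 5.796 ± 0.29 and Vegfa at 2.07 ± 0.04, but Adm (adrenomedullin) at -3.61 ± 0.11. Pyruvate entry was split, with 3 higher and 3 lower of 7, and Pdk4 and Pdk2 were lower, at -2.30 and -0.74, where Pdk1 was higher. Of 8 other HIF regulators 3 were higher and 4 lower: Vhl, which targets HIF alpha for breakdown, was at 0.95, and Cited2 and Arnt2 were at -1.22 and -1.08. Of 9 other glycogen genes 6 were higher and 3 lower, with Ppp1r3c at -2.65 and Gyg, the primer of glycogen, at -1.81. All 6 proliferation markers were higher too, with a summed mean of 478.5 CPM in DMSO and 1009 CPM in TGFb1 + DMSO. The 5 mural markers summed to 70.6 CPM in DMSO and 142 CPM in TGFb1 + DMSO: Cspg4 was higher (7.48 and 99.5 CPM), 3 were lower and 1 did not pass. Mesothelial Wt1 (13.2 and 23.3 CPM) and endothelial Kdr (1.596 and 4.19 CPM) were higher as well. Endothelial Pecam1 and Cdh5 also had higher means, but Tek (6.71 and 0.774 CPM) and Emcn had lower ones. The endothelial markers summed to 8.54 CPM in DMSO and 5.94 CPM in TGFb1 + DMSO. Mesothelial Upk3b had a lower mean (0.406 and 0.0114 CPM). The part of these markers in the members' result was not tested.

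The same cytokine was also measured on a background of CHIR. In TGFb1 + CHIR against CHIR, which shares no library with the comparison above, 27 members were higher, 3 were lower and 3 did not pass, where 33.8% of all genes were higher and 32.3% lower. The median over members was 1.97 on the log2 scale, and 0.01 over all genes. The 3 that were lower were Epas1 (-2.61 ± 0.088), Mxi1 (-0.80 ± 0.059) and Kdm3a (-0.44 ± 0.055). The largest rises were those of Slc16a3 (5.59 ± 0.09, 48.1-fold), Car12 (3.35 ± 0.23), Ak4 (3.31 ± 0.098) and Pfkp (3.26 ± 0.055). Slc16a3 stood at 2.12, 1.71 and 2.19 CPM in CHIR and 99.0, 89.6 and 100.1 CPM in TGFb1 + CHIR, with no overlap. Aldoc passed here (2.86 ± 0.83, adjusted p = 0.00228), but on 1, 1 and 2 counts against 14, 10 and 5. Of the 79 other pathway genes 49 were higher, 22 lower and 8 did not pass. All 6 proliferation markers were higher here too, with a sum of 72.4 CPM in CHIR and 586.7 CPM in TGFb1 + CHIR. Among markers of other cell types, endothelial Kdr (1.74 and 20.4 CPM), mural Cspg4 (7.24 and 18.8 CPM) and mesothelial Wt1 (9.14 and 17.0 CPM) were higher. Endothelial Cdh5 and mural Notch3 and Des had higher means too. Endothelial Tek (5.46 and 0.740 CPM), Emcn (1.59 and 0.0165 CPM) and Pecam1 had lower means. So did mural Myh11 (6.88 and 0.282 CPM) and Rgs5 (4.78 and 0.0535 CPM). The part of these markers in the members' result was not tested.

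**Figure D3:**
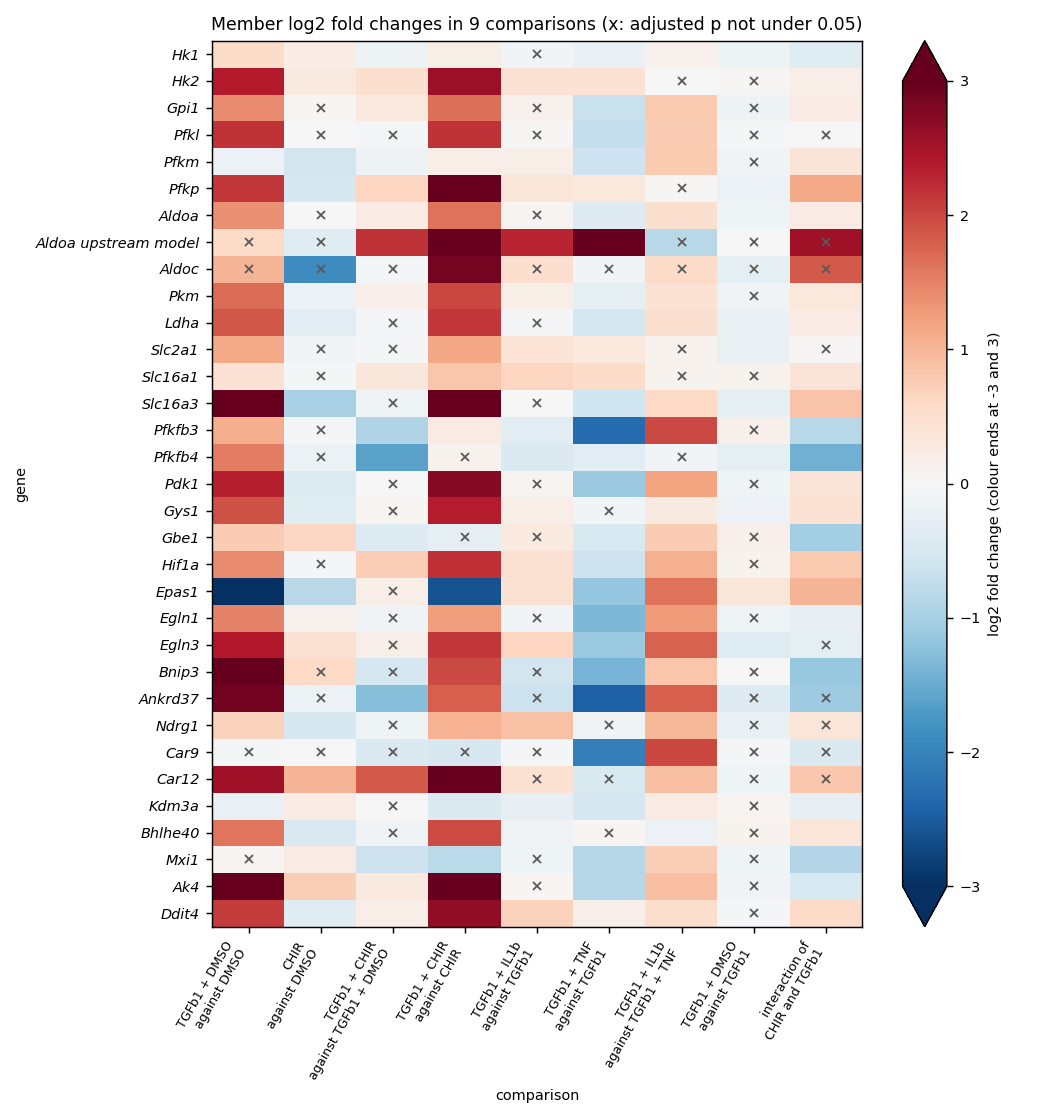
Log2 fold changes of the 33 member rows (y axis) in the 9 comparisons (x axis); red is higher and blue lower in the first group, and a cross marks an adjusted p not under 0.05. The columns for TGFb1 + DMSO against DMSO and TGFb1 + CHIR against CHIR hold 26 and 27 members that were higher, and the column for TNF holds 22 that were lower.

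CHIR alone moved the members both ways, as it did the genes as a whole. In CHIR against DMSO 9 were higher, 11 were lower and 13 did not pass, where 22.1% of all genes were higher and 22.7% lower. The median over the members was -0.06, against -0.01 over all genes. Slc16a3 fell by 0.97 on the log2 scale (SE 0.14, adjusted p = 4.62e-08), from 4.01, 3.42 and 4.38 CPM to 2.12, 1.71 and 2.19 CPM, and Epas1 by 0.83 (SE 0.074, adjusted p = 9.13e-13), from 174, 168 and 162 CPM to 93.4, 92.2 and 97.5 CPM. Neither gene's groups overlapped. Ak4 rose by 0.75 ± 0.13 and Car12 by 1.02 ± 0.33, the latter from 0.544, 0.839 and 0.405 CPM to 1.45, 1.06 and 1.17 CPM. The Car12 call was lost without DMSO replicate 3 (0.83, adjusted p = 0.0518) or without CHIR replicate 1 (0.87, adjusted p = 0.0571). Pkm fell by 0.17 and Ldha by 0.31, while Slc2a1 had -0.07 ± 0.059 and Hif1a -0.05 ± 0.042, neither past the threshold. Both passed when scaled by library totals alone (-0.14, adjusted p = 0.0439, and -0.12, adjusted p = 0.0187); without DMSO replicate 2, Slc2a1 stood at -0.16 with an adjusted p of 0.0176. All 6 proliferation markers were lower in CHIR, where they summed to 72.4 CPM against 478.5 in DMSO. Means of markers of cell types differed both ways. Fibroblast Dcn (2982 against 2013 CPM) and mural Myh11 (6.88 against 0.846 CPM) and Rgs5 (4.78 against 1.09 CPM) were higher in CHIR. Fibroblast Pdgfra (1089 against 1485 CPM) and mural Notch3 (37.3 against 59.7 CPM) were lower. The part of these markers in the members' changes was not tested.

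On top of TGFb1, CHIR lowered both Pfkfb genes and raised Hif1a and Car12. In TGFb1 + CHIR against TGFb1 + DMSO 11 members were higher, 7 were lower and 15 did not pass, where 20.8% of all genes were higher and 22.5% lower. The median over the members was -0.02. Pfkfb4 stood at 41.9, 42.0 and 42.6 CPM in TGFb1 + DMSO and 13.6, 12.9 and 14.8 CPM in TGFb1 + CHIR, against 14.2, 13.7 and 15.5 CPM in DMSO. Its libraries in TGFb1 + CHIR were thus in the range of those without TGFb1. The change was -1.62 ± 0.085 on the log2 scale (3.07-fold lower, adjusted p = 2.35e-22), and Pfkfb3 changed by -0.90 ± 0.075, from 88.6, 93.4 and 84.8 CPM to 47.4, 49.6 and 45.9 CPM.

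Hif1a rose further, from 776, 721 and 715 CPM to 1237, 1213 and 1242 CPM, which is 0.74 ± 0.041 (adjusted p = 1.4e-21), and TGFb1 + CHIR was its highest group. Car12 went from 4.85, 3.31 and 2.49 CPM to 11.9, 11.7 and 14.4 CPM, or 1.84 ± 0.20. Hk2 and Pfkp rose by 0.48 and 0.65 and Slc16a1 by 0.35, but Ldha (-0.06 ± 0.043), Slc2a1 (-0.04 ± 0.055) and Slc16a3 (-0.12 ± 0.055) did not pass. Pkm rose by 0.16 ± 0.037, and with TGFb1 as the control it did not pass (0.04). Epas1 had 0.19 ± 0.099, which passed without TGFb1 + DMSO replicate 2 (0.33, adjusted p = 0.00887) or TGFb1 + CHIR replicate 3 (0.28, adjusted p = 0.0265). With TGFb1 as the control Epas1 was higher, by 0.55 (adjusted p = 2.29e-05).

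Ankrd37 was lower, with 2.25, 2.25 and 4.87 CPM in TGFb1 + DMSO and 1.41, 1.28 and 1.17 CPM in TGFb1 + CHIR (-1.27 ± 0.31, adjusted p = 0.000698). Without TGFb1 + DMSO replicate 3 this was -0.80 with an adjusted p of 0.051. The upstream Aldoa model was higher (2.17 ± 0.71) on 1, 6 and 2 counts against 9, 13 and 11, and without TGFb1 + DMSO replicate 1 its adjusted p was 0.0615. When the TGFb1 group was used in place of TGFb1 + DMSO, 12 members were lower rather than 7, with Ldha, Slc2a1, Slc16a3, Egln1, Egln3 and Ndrg1 newly among them, while Gbe1 and Ak4 did not pass. All 6 proliferation markers were lower in TGFb1 + CHIR (a sum of 586.7 CPM against 1009), and the endothelial markers summed to 21.5 against 5.94 CPM, most of it Kdr with Pecam1 at 0.109 CPM. Mural Cspg4 (18.8 against 99.5 CPM) and mesothelial Wt1 (17.0 against 23.3 CPM) were lower. The part of these in the members' changes was not tested.

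Whether CHIR acted differently with and without TGFb1 was tested as an interaction, the log2 effect of CHIR with TGFb1 less that without it. It passed for 24 members, 15 with a positive and 9 with a negative value, where 41.2% of all genes passed, 21% positive and 20.3% negative. The largest was that of Pfkfb4, -1.43 ± 0.12 (adjusted p = 5.53e-14), whose CHIR effect was -0.18 ± 0.091 without TGFb1. Pfkp had 1.13 ± 0.075, with an effect of -0.47 ± 0.057 in the absence of TGFb1 and 0.65 ± 0.048 in its presence. Epas1 had 1.02 ± 0.12, Gbe1 -1.01 ± 0.19, Mxi1 -0.88 ± 0.082, Slc16a3 0.85 ± 0.15 and Hif1a 0.78 ± 0.058. For Mxi1 the CHIR effect changed sign, from 0.25 to -0.63, and both values passed. Bnip3 had -1.14 ± 0.47 with an adjusted p of 0.0466, and this call was lost in 7 of the 12 fits that left out 1 library of these 4 groups. It was also lost when scaled by library totals alone (adjusted p = 0.0509).

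**Figure D4:**
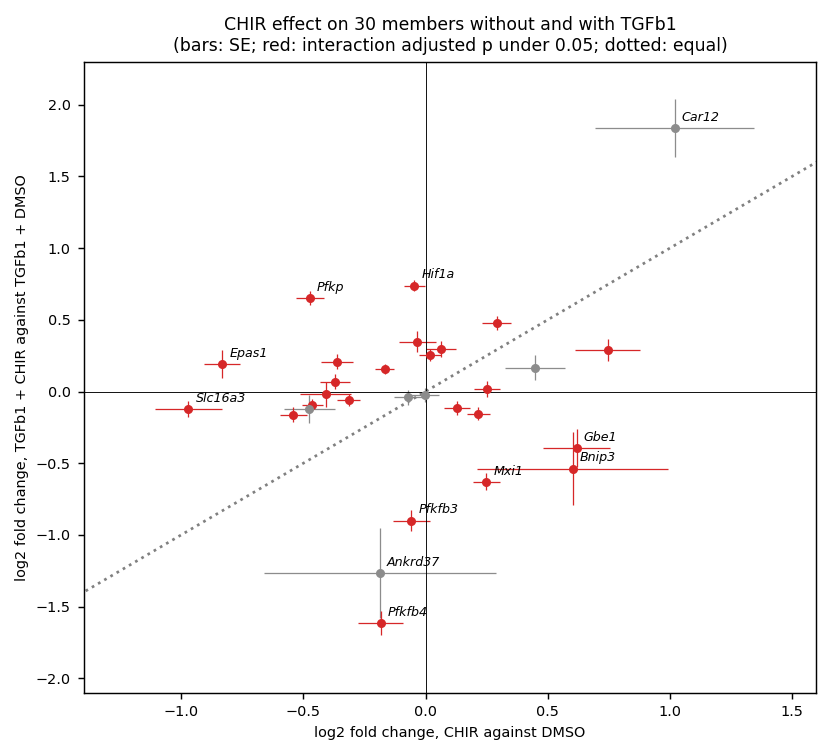
Each point is a member: the x axis is the log2 fold change of CHIR against DMSO and the y axis that of TGFb1 + CHIR against TGFb1 + DMSO, with SE as bars; red points passed the interaction test and the dotted line marks equal effects. Pfkfb4 and Pfkfb3 lie near 0 on the x axis and at -1.62 and -0.90 on the y axis, and Pfkp and Hif1a lie above the line. Car9, Aldoc and the upstream Aldoa model, with few counts, are left out.

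IL1b added to TGFb1 raised more members than it lowered, by small amounts. In TGFb1 + IL1b against TGFb1 13 members were higher, 4 were lower and 16 did not pass, where 17.2% of all genes were higher and 17.4% lower, and the median over the members was 0.12. Ndrg1 stood at 331, 406 and 379.8 CPM in TGFb1 and 611, 726 and 732 CPM in TGFb1 + IL1b, or 0.89 ± 0.099 (adjusted p = 2.87e-06). Ddit4 went from 131, 119.8 and 122 CPM to 217, 199.5 and 186 CPM, or 0.69 ± 0.052 (adjusted p = 5.88e-16). In both genes every IL1b library was above every TGFb1 library.

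Of the 3 transporter genes, 2 were higher with IL1b. Slc16a1 rose by 0.65 ± 0.073, from 56.8, 66.6 and 60.8 CPM to 94.8, 92.5 and 102 CPM, and Slc2a1 by 0.42 ± 0.055, from 204, 222 and 221 CPM to 284, 294 and 286 CPM, whereas Slc16a3 had 0.01 ± 0.054. Egln3 rose by 0.65 ± 0.083, Hif1a by 0.46 ± 0.041 and Epas1 by 0.47 ± 0.10. Pkm rose by 0.17 ± 0.037, and Ldha had -0.03 ± 0.043. Pfkfb3 and Pfkfb4 fell by 0.32 and 0.44. The upstream Aldoa model rose by 2.29 ± 0.70 on 0, 5 and 3 counts against 9, 20 and 17, and without TGFb1 replicate 1, the library at 0, its adjusted p was 0.0766. With the TGFb1 + DMSO group as the control, Slc16a3 passed too (0.30, adjusted p = 7.76e-06), so that all 3 transporter genes were higher. Ldha (0.18, adjusted p = 0.000598), Gpi1 (0.28, adjusted p = 5.66e-05), Aldoa (0.21, adjusted p = 7.63e-05) and Car12 (0.57, adjusted p = 0.0241) were higher with that control as well, while Epas1 (0.11) and Pfkfb4 (-0.16) did not pass. Of 79 other pathway genes 26 were higher, 18 lower and 35 did not pass. Of the 6 proliferation markers 5 were lower with IL1b, and the mural marker Cspg4 was higher (149 against 113 CPM). The other mural markers had lower means, among them Notch3 (31.29 against 42.36 CPM). Fibroblast Pdgfra (210.6 against 424.3 CPM) and Pdgfrb (510.1 against 970.0 CPM) had lower means with IL1b. Dcn (482.8 against 224.5 CPM) and Col3a1 had higher means, and the remaining fibroblast markers had lower ones. The part of these markers in the members' changes was not tested.

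TNF added to TGFb1 lowered most members. In TGFb1 + TNF against TGFb1 22 members were lower, 6 were higher and 5 did not pass, where 28.8% of all genes were lower and 27.7% higher. The median over the members was -0.49, against 0 over all genes to 2 decimals. At least 2-fold lower were 8 members, against 9.51% of all genes, and 1 was at least 2-fold higher, against 6.7%.

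Pfkfb3 was low in every TNF library. It stood at 78.8, 80.8 and 79.2 CPM in TGFb1 and 13.9, 17.0 and 17.2 CPM in TGFb1 + TNF, against 47.9, 38.1 and 39.2 CPM in DMSO, so the TNF libraries were below those without TGFb1. The change was -2.31 ± 0.083 (4.97-fold lower, adjusted p = 3.1e-26). Pdk1, from 222, 235 and 232 CPM to 91.1, 114 and 114 CPM, changed by -1.11 ± 0.089 (adjusted p = 3.73e-09). Pfkfb4 fell by 0.35 only, and with TGFb1 + DMSO as the control it did not pass (-0.07).

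All 4 members grouped as HIF regulation, the subunit genes Hif1a and Epas1 and the hydroxylase genes Egln1 and Egln3, were lower. Of 8 other HIF regulators 4 were lower, 1 was higher and 3 did not pass. Epas1 had 10.9, 9.10 and 12.1 CPM in TGFb1 and 5.39, 4.16 and 4.72 CPM in TGFb1 + TNF, its lowest group (-1.16 ± 0.12, adjusted p = 4.52e-11). Hif1a fell by 0.62 (SE 0.041, adjusted p = 8.71e-19), from 709, 684 and 673 CPM to 449, 458 and 441 CPM, which was still above the DMSO libraries. Egln1 fell from 209, 214 and 208 CPM to 77.5, 82.3 and 86.5 CPM, or -1.36 ± 0.052, and Egln3 changed by -1.11 ± 0.09. Among the HIF targets Ankrd37 (-2.44 ± 0.33), Bnip3 (-1.4 ± 0.27), Ak4 (-0.86 ± 0.08), Mxi1 (-0.86 ± 0.059) and Kdm3a (-0.49 ± 0.057) were lower. Car9 was lower as well (-2.06 ± 0.75, adjusted p = 0.0174), but on 8, 19 and 5 counts against 2, 4 and 2. Its call was lost without TGFb1 replicate 2 (adjusted p = 0.158), TGFb1 + TNF replicate 1 (adjusted p = 0.0597) or TGFb1 + TNF replicate 3 (adjusted p = 0.0574).

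The enzymes and transporters were divided. Ldha fell by 0.52 (SE 0.043, adjusted p = 2.77e-15), Pkm by 0.27, Pfkl by 0.72, Gpi1 by 0.66, Pfkm by 0.61 and Slc16a3 by 0.59. Slc2a1 rose by 0.32 ± 0.055, from 204, 222 and 221 CPM to 275, 269.9 and 262 CPM, and Hk2 by 0.43, Pfkp by 0.33 and Slc16a1 by 0.56. The other hexokinase, Hk1, fell by 0.20 (SE 0.046, adjusted p = 0.000225), and with TGFb1 + DMSO as the control it did not pass (-0.05). The upstream Aldoa model rose by 3.14 ± 0.68 (adjusted p = 7.89e-05), on 0, 5 and 3 counts against 33, 24 and 24, while the main Aldoa model fell by 0.40. Ddit4 rose by 0.16, and without TGFb1 + TNF replicate 2 its adjusted p was 0.0553.

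Of the 79 other pathway genes 44 were lower with TNF, 20 higher and 15 did not pass, with a median of -0.42. Of 9 other glycogen genes 7 were lower, among them Ppp1r3c (-1.93), and of 12 other enzymes 6 were lower, with Eno3 at -1.52, and 2 higher, with Tigar, a phosphatase that lowers fructose 2,6-bisphosphate, at 1.19. The neuronal-type glucose transporter gene Slc2a3 changed by -2.63 ± 0.11, in the opposite direction to Slc2a1. Of 29 other HIF targets 17 were lower and 9 higher: Adm stood at -4.47 ± 0.20, Vegfa at 1.20 ± 0.039 and Stc2 at 2.11 ± 0.11. The 8 fibroblast markers summed to 23470 CPM with TNF and 63770 CPM in TGFb1, with 7 of the 8 lower. The 5 mural markers summed to 283 CPM with TNF and 159 CPM in TGFb1: Cspg4 was higher (272.5 against 113 CPM) and the other 4 were lower. The endothelial markers summed to 12.4 against 4.98 CPM, with Kdr and Cdh5 higher and Pecam1 at 0.16 CPM with TNF, and mesothelial Wt1 was lower. The proliferation markers had a higher summed mean with TNF, 1213 CPM against 1080 CPM in TGFb1, where most members were lower. Among them only Rrm2 had a lower mean with TNF (47.09 against 54.26 CPM). The part of these markers in the members' changes was not tested.

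Set against each other on the same TGFb1 background, at doses that are not given, the 2 inflammatory cytokines differed for most members. In TGFb1 + IL1b against TGFb1 + TNF 25 members were higher with IL1b, 1 was lower and 7 did not pass, where 24.7% of all genes were higher and 22.8% lower. The median over the members was 0.73. The 4 largest differences were those of Car9 (2.01 ± 0.75), Pfkfb3 (1.99 ± 0.083), Ankrd37 (1.79 ± 0.33) and Egln3 (1.76 ± 0.088). Egln3 stood at 48.1, 54.4 and 53.9 CPM with IL1b and 13.1, 15.6 and 17.4 CPM with TNF, with no overlap. The one member lower with IL1b was Bhlhe40 (-0.17 ± 0.042). Hif1a (1.07 ± 0.041), Epas1 (1.62 ± 0.11), Pkm (0.44 ± 0.037) and Ldha (0.49 ± 0.043) were higher with IL1b. Slc2a1 (0.10 ± 0.054), Hk2 (0.02 ± 0.05) and Pfkp (0.04 ± 0.047) did not pass. The Hk1 difference (0.12 ± 0.046) was the only call on a member between 2 groups whose libraries overlapped, and it was lost without TGFb1 + IL1b replicate 2 or 3 or TGFb1 + TNF replicate 2. The Hk1 call was also lost with RLE factors (adjusted p = 0.0859), library totals alone (0.324), the 1 CPM filter (0.0573) and DESeq2 (0.0988). The Car9 call was lost without TGFb1 + IL1b replicate 2, TGFb1 + TNF replicate 1 or TGFb1 + TNF replicate 3 (adjusted p from 0.0652 to 0.0765). The fibroblast markers summed to 59640 CPM with IL1b and 23470 CPM with TNF, though Dcn had the lower mean with IL1b. Sums were 183 and 283 CPM for mural markers, where Notch3 went the other way (31.3 and 9.40 CPM). They were 4.51 and 12.4 CPM for endothelial and 965 and 1213 CPM for proliferation markers. The part of these markers was not tested.

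The balance between isozymes was followed as shares of counts per kilobase of exon, which allow genes of a pair to be set against each other. With 3 libraries against 3, the exact permutation test cannot go below a p of 0.1, so these shares are described without a call. Of Hk1 + Hk2, Hk2 made up 24.9% ± 0.334 in DMSO (mean ± SD, n = 3), 54.2% ± 0.368 in TGFb1 + DMSO and 64.8% ± 1.09 in TGFb1 + CHIR. The leading phosphofructokinase differed between the groups. Pfkm held 70.4% ± 0.412 of the family in DMSO and 31.95% ± 1.19 in TGFb1 + DMSO, Pfkl held 20.4% ± 0.375 and 47.4% ± 0.506, and Pfkp, at 9.20% ± 0.104 in DMSO, reached 35.6% ± 0.753 in TGFb1 + TNF.

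Within the pair of lactate transporters, the share of Slc16a3 was 6.29% ± 0.989 in DMSO, 3.38% ± 0.567 in CHIR, 63.4% ± 0.766 in TGFb1 and 43.9% ± 1.38 in TGFb1 + TNF. Epas1 made up 38.9% ± 0.970 of Hif1a + Epas1 in DMSO and 27.0% ± 1.66 in CHIR, and between 1.10% ± 0.152 and 1.90% ± 0.317 in the 5 groups with TGFb1. Pfkfb4 held 42.4% ± 1.37 of Pfkfb3 + Pfkfb4 in TGFb1 + DMSO and 30.9% ± 2.27 in TGFb1 + CHIR, and 49.8% ± 2.76 in TGFb1 and 79.6% ± 1.62 in TGFb1 + TNF. Egln3 was highest with IL1b, at 26.1% ± 0.413 of Egln1 + Egln3, against 17.6% ± 0.848 in TGFb1. Aldoa held over 99% of Aldoa + Aldoc in every group.

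**Figure D5:**
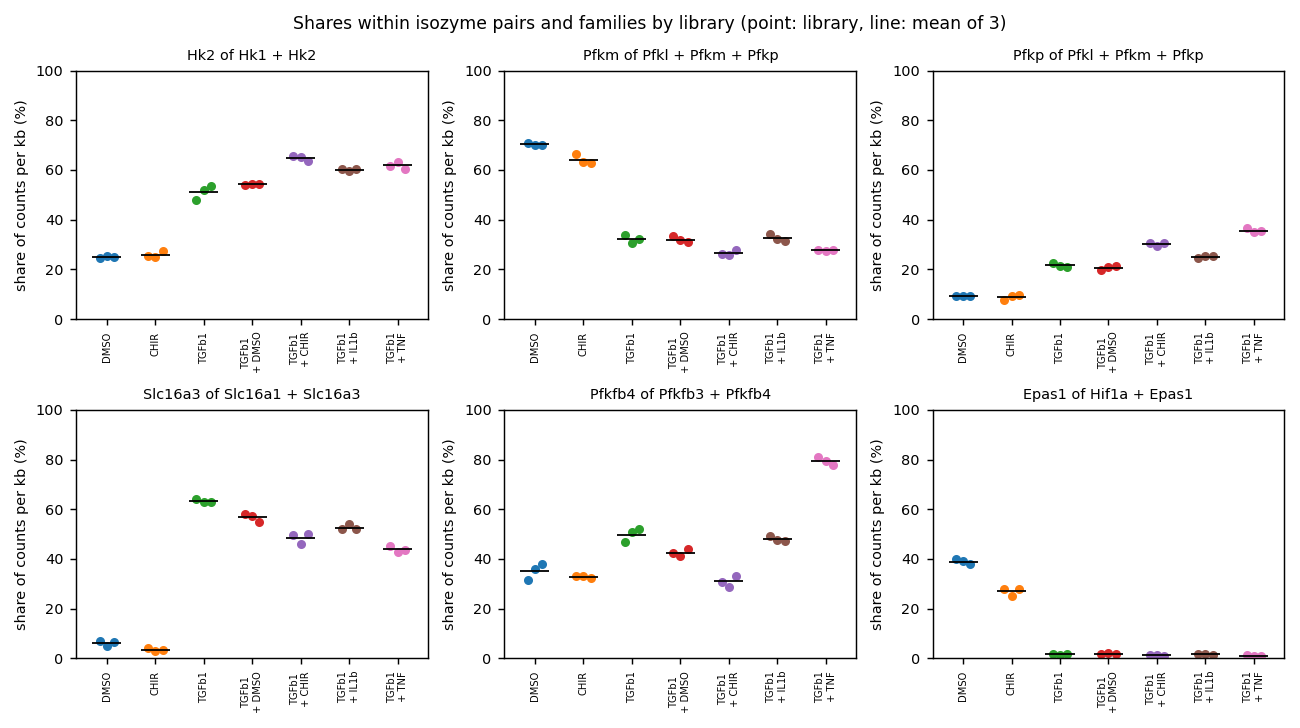
Share of counts per kilobase of exon (%) held by 1 gene of a pair or family, by treatment group; points are libraries and lines are means of 3. Pfkm stands at 70.4% in DMSO and 31.95% in TGFb1 + DMSO, Slc16a3 at 6.29% and 56.7%, and Pfkfb4 stands at 79.6% in TGFb1 + TNF.

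Per kilobase, and as the median of the 7 group means, the most abundant members were Aldoa with 204.2 CPM per kb, Ldha with 123, Bhlhe40 with 123, Hif1a with 117 and Pkm with 103.6. The least abundant were Aldoc with 0.134, the upstream Aldoa model with 0.139 and Car9 with 0.178. The highest group mean was found in TGFb1 + IL1b for 13 members, in TGFb1 + CHIR for 7 and in TGFb1 for 6. It was found in CHIR, DMSO and TGFb1 + DMSO for 2 each, and in TGFb1 + TNF for 1, the upstream Aldoa model. The lowest was found in CHIR for 17 members, in DMSO for 10 and in TGFb1 + TNF for 6. The ratio of highest to lowest group mean ran from 1.61 for Hk1 to 64.3 for Slc16a3. It was 35.3 for Epas1, 21.2 for Car12, 18.5 for the upstream Aldoa model with its few counts, and 16.6 for Ak4.

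The solvent itself can be read from TGFb1 + DMSO against TGFb1. Here 1 member was higher, Epas1 (0.36 ± 0.10), 9 were lower and 23 did not pass, where 2.33% of all genes were higher and 3.8% lower. The median over the members was -0.12. The 9 lay between -0.37 (Egln3, SE 0.086) and -0.13 (Aldoa, SE 0.043), with Slc16a3 at -0.29 ± 0.054, Pfkfb4 at -0.28 ± 0.075, Slc2a1 at -0.21 ± 0.055 and Ldha at -0.21 ± 0.043. Pkm (-0.11 ± 0.037) and Hif1a (0.10 ± 0.041) did not pass. With 1 library left out, 3 to 8 members were lower and 0 or 1 higher: Epas1 was lost without TGFb1 replicate 1 or 2 or TGFb1 + DMSO replicate 2, Slc2a1 without TGFb1 replicate 2 or 3 or TGFb1 + DMSO replicate 1, and Pfkfb4 without TGFb1 replicate 2 or 3 or TGFb1 + DMSO replicate 1 or 2. Hk1 was lost without any 1 of the 6 libraries, Aldoa without any 1 of the TGFb1 libraries or without TGFb1 + DMSO replicate 1 (-0.08), Pfkp without TGFb1 replicate 1 or 2 or TGFb1 + DMSO replicate 1 (-0.10), and Gys1 without TGFb1 replicate 2 or 3 or TGFb1 + DMSO replicate 1 or 2.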

How the data were processed

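The authors deposited raw counts per gene for 21 libraries in 7 groups of 3, with libraries prepared from total RNA by a stranded protocol per the labels. The aligner, counter, strand setting and row filters were not given in the sources used here. Builds GRCh38 and GRCm38 appear in the submitters' processing notes with no role. The 21 single-library tables held the same values as the joint table. Symbols and positions came from GENCODE M21 on GRCm38, which held 52489 of the 52636 gene identifiers; the others took 0.00736% of the counts. Groups came from the labels, and replicate numbers only name libraries.

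Genes passing filterByExpr (16197) were fitted with edgeR 4.0.16 in R 4.3.3: TMM factors (0.963 to 1.05), 1 coefficient per group over all 21 libraries, robust quasi-likelihood F-tests, and Benjamini-Hochberg adjustment over all genes tested at 0.05. The common biological coefficient of variation was 0.0581. Replicates differed beyond sampling noise, with a chi-square per gene of 3.23 to 10.1 over 21 pairs. Named members were the 8 with the largest absolute change past the threshold in TGFb1 + DMSO against DMSO, 4 in each other comparison, and Hif1a, Epas1, Slc2a1, Ldha and Pkm; other members and pathway genes named with values were picked by role or size after these were seen. The members and lists were chosen with earlier results of these data known. Shared sequence was counted as exact 50-base windows among annotated transcripts, in place of the genome that was planned, and 100-base windows were also run. Alternatives were DESeq2 1.42.0, RLE factors, library totals alone, no filter, 1 CPM in at least 3 libraries, only the groups compared, the other TGFb1 group, plain counts for shares, and each library left out. The fit was tested on simulated data. Sequence of proteins was not used here.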

Additional observations from a re-analysis of the deposited data

Results flagged for a closer look

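For 24 members the effect of CHIR with TGFb1 differed from its effect without TGFb1, by the test of the difference itself (edgeR interaction term, adjusted over all genes tested); 41.2% of all genes did so. Values are the log2 effect with TGFb1 less that without it. Positive values were found for Pfkp (1.13), Epas1 (1.02), Slc16a3 (0.85), Hif1a (0.78), Ddit4 (0.57), Gys1 (0.44), Pdk1 (0.39), Pfkm (0.38), Slc16a1 (0.38), Bhlhe40 (0.37), Pkm (0.33), Ldha (0.26), Aldoa (0.24), Gpi1 (0.23) and Hk2 (0.19). Negative values were found for Pfkfb4 (-1.43), Bnip3 (-1.14), Gbe1 (-1.01), Mxi1 (-0.88), Pfkfb3 (-0.84), Ak4 (-0.46), Hk1 (-0.37), Egln1 (-0.25) and Kdm3a (-0.24). Of the 11 glycolytic enzyme rows 7 were positive and 1 negative, and of the 10 other HIF targets 2 were positive and 4 negative. The call on Hk2 had an adjusted p of 0.0492, that on Bnip3 0.0466, that on Pdk1 0.0288 and that on Gpi1 0.0192, and each was lost with single libraries left out: Hk2 in 8 of 12 such fits, Pdk1 in 8, Bnip3 in 7, and Gpi1 without DMSO replicate 1, CHIR replicate 2 or TGFb1 + DMSO replicate 1. Ak4 was lost without CHIR replicate 3 (-0.37, adjusted p = 0.0637). Processing mattered too. The Hk2 call was lost with RLE factors (adjusted p = 0.0654), no filter (0.0975), the 1 CPM filter (0.0815) and DESeq2 (0.0872). The Bnip3 call was lost with library totals alone (adjusted p = 0.0509). No cause of these differences was tested.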

How the results depend on the processing

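With every library left out in turn, 1872 member results stayed on the same side of the threshold, 87 no longer passed and 21 newly passed. A change of sign was not counted where neither fit passed. In TGFb1 + DMSO against DMSO the counts of members higher and lower stayed at 26 and 3, and in TGFb1 + CHIR against CHIR at 27 and 3. Using the other TGFb1 group as the control gave 12 members lower in TGFb1 + CHIR (7 with TGFb1 + DMSO), turned Egln3 there from 0.16, not passed, to -0.21 (adjusted p = 0.0415), and turned Ldha with IL1b from -0.03, not passed, to 0.18 (adjusted p = 0.000598). Scaling by library totals alone gave 11 members lower in TGFb1 + CHIR against TGFb1 + DMSO, and in TGFb1 + DMSO against TGFb1 it gave 3 members higher, 5 lower and 668 of all genes higher, where TMM gave 1, 9 and 378. In that solvent comparison, the fit of the 2 groups alone gave 0 members higher, and leaving out 1 library gave 0 to 1 members higher, 3 to 8 lower and 225 to 337 of all genes higher. The cause of these shifts was not tested. Shares from plain counts, without division by exon length, moved 27 of 72 isozyme differences by more than their replicate spread and reversed 0. The other TGFb1 group was used in 4 comparisons. In TGFb1 + DMSO against DMSO it replaced the treated group, so the groups then differed in solvent too, and in the rest it replaced the control. This swap moved 19 member results across the threshold and turned a further 2 (Egln3 and Ldha, above). Library totals alone moved 18, the fit of only the groups compared 12, the 1 CPM filter 8, no filter 6, DESeq2 5 and RLE factors 4. With 100-base windows the shared part of Bnip3 was 31.6%, of Pkm 7.52% and of Gpi1 7.04%. No paired analysis was possible because the labels give the libraries no shared replicate numbers. Depth limits Car9, Aldoc and the upstream Aldoa model, with at most 33 counts in a library.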

Other observations

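Some values fall outside the comparisons above. Slc2a3, the glucose transporter gene that is not a member, was at 0.52 in TGFb1 + DMSO against DMSO and at -2.63 with TNF, while Slc2a1 was higher in both. Among the kinases of pyruvate dehydrogenase, Pdk1 and Pdk3 were higher with TGFb1 (2.34 and 0.56) and Pdk2 and Pdk4 lower (-0.74 and -2.30), and with TNF all 4 were lower (-1.11, -0.64, -1.67 and -1.93; edgeR). Vegfa and Ero1l, 2 other HIF targets, were higher with TNF (1.20 and 1.14), where Adm was lower (-4.47).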
